A study of Mus musculus with 8 samples.

Results

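The complement genes described here are 9 genes of the complement system, chosen by name: the 3 chains of C1q (C1qa, C1qb, C1qc), C3, C4b, factor B (Cfb), properdin (Cfp) and the anaphylatoxin receptors C3ar1 and C5ar1. A member was measured where a probe set of the array carried its symbol and no other. Of the 9 members 8 had such a probe set, 1 each, among 19938 genes in all, and C3 was not analysed here. No member differed between the genotypes compared at the threshold used for all genes. These were control macrophages and macrophages with Il6ra targeted for deletion, both exposed to IL-6.

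The 8 arrays measured RNA of macrophages grown from mouse bone marrow for 10 days in recombinant murine M-CSF (10 ng/ml), starved of serum overnight and exposed for 4 h to recombinant mouse IL-6 at 50 ng/ml. Ctrl macrophages (4 arrays) came from IL6ralpha flox/flox mice, in which both Il6ra alleles are flanked by loxP sites. IL6raKO macrophages (4 arrays) came from IL6ralpha flox/flox LysMCre tg/wt mice, which also carry 1 copy of a Cre recombinase driven from the lysozyme M locus, active in myeloid cells. Every array thus shared the floxed alleles, M-CSF, starvation and IL-6, and Cre was present in IL6raKO only. Any loss of the receptor and the presence of Cre therefore cannot be told apart. No array was from cells without IL-6, so a part of a difference that needs IL-6 could not be separated from one present before. The labels call the replicates biological and do not say that each was a separate animal. The p-values therefore measure the spread between these samples. The labels give no ages.

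Complement is a cascade of plasma proteins that tags microbes and dying cells for uptake. C1q, built from A, B and C chains, binds antibody complexes and cell debris and starts the classical pathway, which cleaves C4 and C2. All pathways meet at C3, whose fragment C3a, like C5a of C5, signals through a G-protein coupled receptor on myeloid cells. Factor B and properdin belong to the alternative pathway: factor B supplies the protease of its convertase and properdin stabilises that convertase. Most complement proteins in plasma come from the liver, while tissue macrophages are a main source of C1q and myeloid cells a source of properdin. IL-6 is known for inducing acute-phase genes, several complement genes among them, in hepatocytes.

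For the targeted gene, the IL6raKO arrays lay below all Ctrl arrays: Il6ra, the IL-6 receptor alpha chain, had log2 values of 8.42 ± 0.02 and 7.92 ± 0.14 (SD, n = 4 each). Its difference of -0.50 (SE 0.07, limma unadjusted p = 2.74e-05) had an adjusted p of 0.0607 over all genes. The targeted gene itself was therefore not called at the threshold applied to the members. Il6ra RNA in IL6raKO was at 70.6% of the control level (limma confidence interval 63.1% to 79.1%). This RNA level does not show how complete the loss of the receptor was, and receptor protein was not tested. The means of 10 macrophage markers lay between 11.24 and 11.33 in Ctrl and between 11.26 and 11.32 in IL6raKO, and 0 of the 10 were called in limma (1 at an unadjusted p under 0.05). On the first principal component of all genes, Ctrl replicate 4 lay away from the rest (21.5, with the other 7 arrays between -6.6 and 4.8). Values are log2 expression after RMA, a method that corrects background, normalises between arrays and sums the probes of a probe set. Levels of different genes are not compared, because probe sets differ in brightness.

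Sequence before the gene start was searched for short motifs in those members for which it was given, with the neighbouring C1q genes as the example. In RefSeq's gene order of GRCm38.p6, C1qa, C1qc and C1qb follow each other on chromosome 4 with 0 protein-coding genes between neighbours. The RefSeq promoter table held 5 of the 8 members (C1qb, C1qc, Cfp, C3ar1 and C5ar1). The 250 bases before the start of C1qb and C1qc are shown because these are the C1q chains with an entry. C1qb lies on the minus strand at chr4:136886201-136886450 and C1qc on the minus strand at chr4:136892915-136893164, both in GRCm38.p6 and both written 5′ to 3′ in the direction of the gene. Capitals mark matches to GGGNNNNNCC, an NF-kB like motif, and to GAGGAA, a PU.1 like motif, on either strand.
C1qb: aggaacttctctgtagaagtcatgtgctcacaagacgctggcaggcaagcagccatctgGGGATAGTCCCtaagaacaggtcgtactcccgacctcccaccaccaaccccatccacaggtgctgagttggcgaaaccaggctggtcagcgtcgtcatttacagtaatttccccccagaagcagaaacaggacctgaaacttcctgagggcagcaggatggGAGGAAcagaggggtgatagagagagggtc
C1qc: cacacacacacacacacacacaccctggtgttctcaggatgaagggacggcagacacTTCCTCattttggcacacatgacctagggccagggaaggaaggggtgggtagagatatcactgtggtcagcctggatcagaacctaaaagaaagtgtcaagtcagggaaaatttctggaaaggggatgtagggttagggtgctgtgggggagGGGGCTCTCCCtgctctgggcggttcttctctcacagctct

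In C1qb the GAGGAA letters end at position -25, counted from the start of the gene, and in C1qc they stand on the opposite strand, ending at position -188, counted from the start. Each of the C1q windows held 2 overlapping matches to GGGNNNNNCC, which 45.8% of all 32851 windows of that length hold, so that the motif is common. GAGGAA is in 23.3% of windows and, among the 5 members, in C1qb and C1qc. The palindromic letters TTCNNNGAA, a STAT motif, were in 7.0% of all windows and in 0 of the 5. GAAANNGAAA, an interferon response motif, was in 3.0% of windows and TTGCNNAA, a C/EBP like motif, in 9.6%, and both were in 0 of the 5. Both strands were searched for each motif. A match or its absence concerns these letters in this window only.

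None of the 3 C1q chains passed the test, with differences of -0.16 for C1qa, -0.09 for C1qb and -0.01 for C1qc. C1qa (probe set 10517517), the A chain, was at 8.37, 8.54, 8.37 and 8.23 on the log2 scale in Ctrl replicates 1 to 4, and at 8.33, 8.16, 8.20 and 8.19 in IL6raKO replicates 1 to 4. IL6raKO replicates 2, 3 and 4 lay below every Ctrl array, while IL6raKO replicate 1 lay within the Ctrl range, so the groups overlapped. The means were 8.38 ± 0.13 and 8.22 ± 0.08 (SD, n = 4 each). The difference, IL6raKO minus Ctrl, was -0.16 (SE 0.08, 95% confidence interval -0.33 to 0.01), which is 89.6% of the control level. Its unadjusted p in limma was 0.0586, the lowest among the 8 members, and its limma adjusted p over all 19938 genes was 0.698. Without Ctrl replicate 4, the Ctrl array with the lowest C1qa value, the difference was -0.21 (limma unadjusted p = 0.0157, adjusted p = 0.733), and without Ctrl replicate 2, the highest, it was -0.11 (limma unadjusted p = 0.178, adjusted p = 0.758).

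C1qb (probe set 10517508), the B chain, was at 10.88, 10.90, 10.97 and 10.92 in Ctrl and at 10.90, 10.82, 10.82 and 10.77 in IL6raKO. Here too IL6raKO replicates 2, 3 and 4 were below every Ctrl array and replicate 1 was not. The difference was -0.09 (SE 0.06, 95% confidence interval -0.22 to 0.04, limma adjusted p = 0.76), or 94.0% of control. C1qc (probe set 10517513), the C chain, was at 11.70, 11.65, 11.65 and 11.62 in Ctrl and at 11.72, 11.69, 11.58 and 11.58 in IL6raKO. Its highest value and its lowest came from IL6raKO arrays, replicate 1 and replicate 3, on either side of the Ctrl values. The difference was -0.01 (SE 0.06, 95% confidence interval -0.14 to 0.12, limma adjusted p = 0.98).

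**Figure D1:**
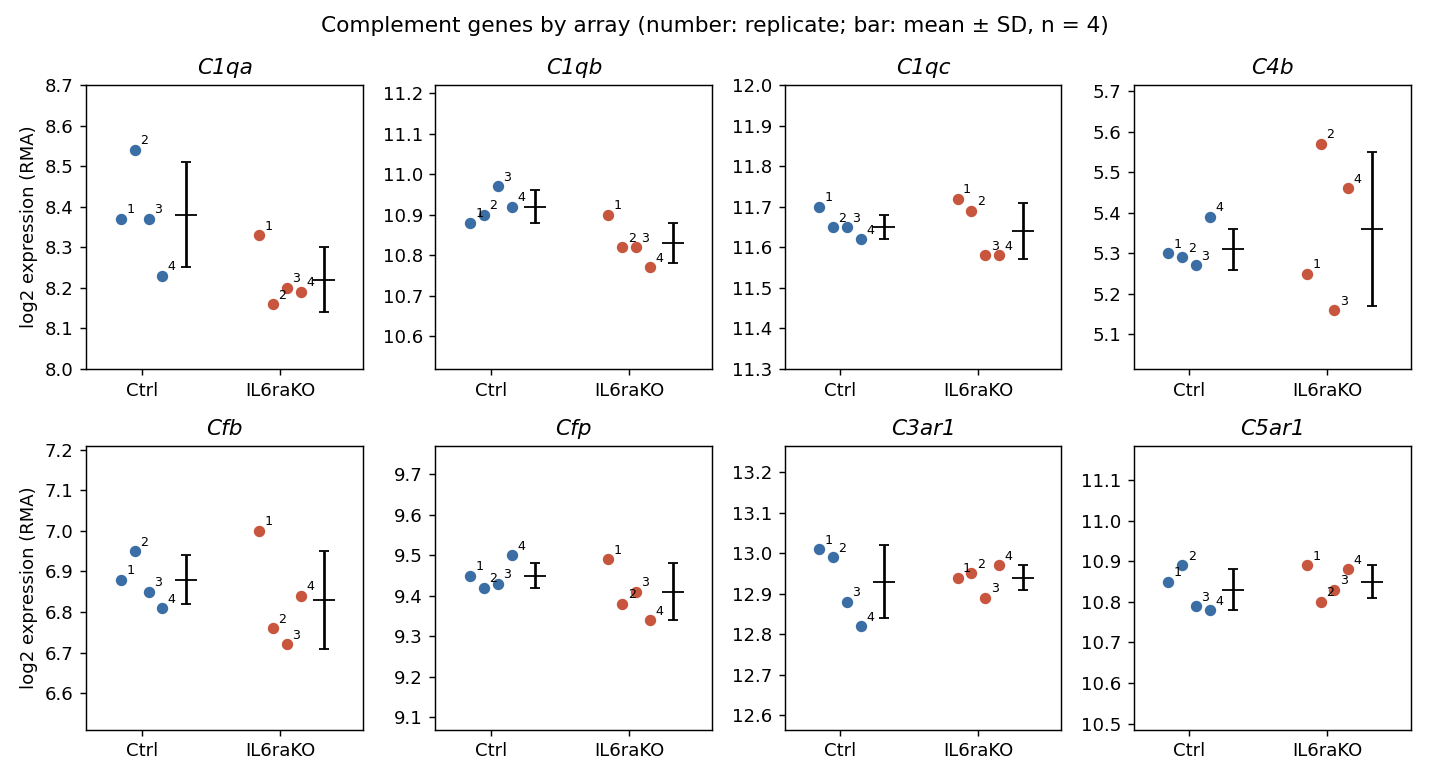
Log2 expression (RMA, vertical axis, 0.7 log2 units in every panel) of the 8 measured complement genes in each array, Ctrl in blue and IL6raKO in red; numbers are replicates and black marks are the mean ± SD (n = 4). In every panel the groups overlap, and C4b shows the widest spread within IL6raKO.

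C1q protein needs all 3 chains, so it was asked whether their differences were unequal, a question chosen after their values were seen. The log2 difference of C1qa and C1qc within an array averaged -3.27 ± 0.12 for Ctrl and -3.42 ± 0.07 for IL6raKO (SD, n = 4 each). It shifted by -0.15 (SE 0.07) between genotypes, with 2 of 4 IL6raKO arrays below all Ctrl arrays (exact two-sided permutation p = 0.0857, adjusted over the 3 pairs of chains p = 0.171). For C1qb and C1qc the shift was -0.08 (SE 0.04, exact permutation p = 0.114, adjusted p = 0.171), and for C1qa and C1qb it was -0.07 (SE 0.07, exact permutation p = 0.457, adjusted p = 0.457). The smallest p that 4 against 4 arrays allow is 0.0286, and unequal change of the chains was not shown.

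The average deviation of the 3 chains from their own means over 8 arrays ran from 0.09 in Ctrl replicate 2 to -0.09 in IL6raKO replicate 4. It was 0.04, 0.09, 0.06 and -0.02 in Ctrl and 0.04, -0.05, -0.07 and -0.09 in IL6raKO. IL6raKO replicate 1 was the array of its group that sat with the controls, and Ctrl replicate 4 was the lowest of its group. Across the 8 arrays C1qa and C1qb had a Pearson r of 0.61 (exact permutation p = 0.11) and a Spearman rho of 0.62 (exact permutation p = 0.115). C1qa and C1qc had r = 0.35 (exact permutation p = 0.4) and rho = 0.33 (exact permutation p = 0.428), and C1qb and C1qc r = 0.36 (exact permutation p = 0.369) and rho = 0.31 (exact permutation p = 0.462). Without the 2 arrays farthest from the median of the first gene, these r were 0.70, 0.86 and 0.17. With the genotype means removed, they were 0.24, 0.37 and 0.42.

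**Figure D2:**
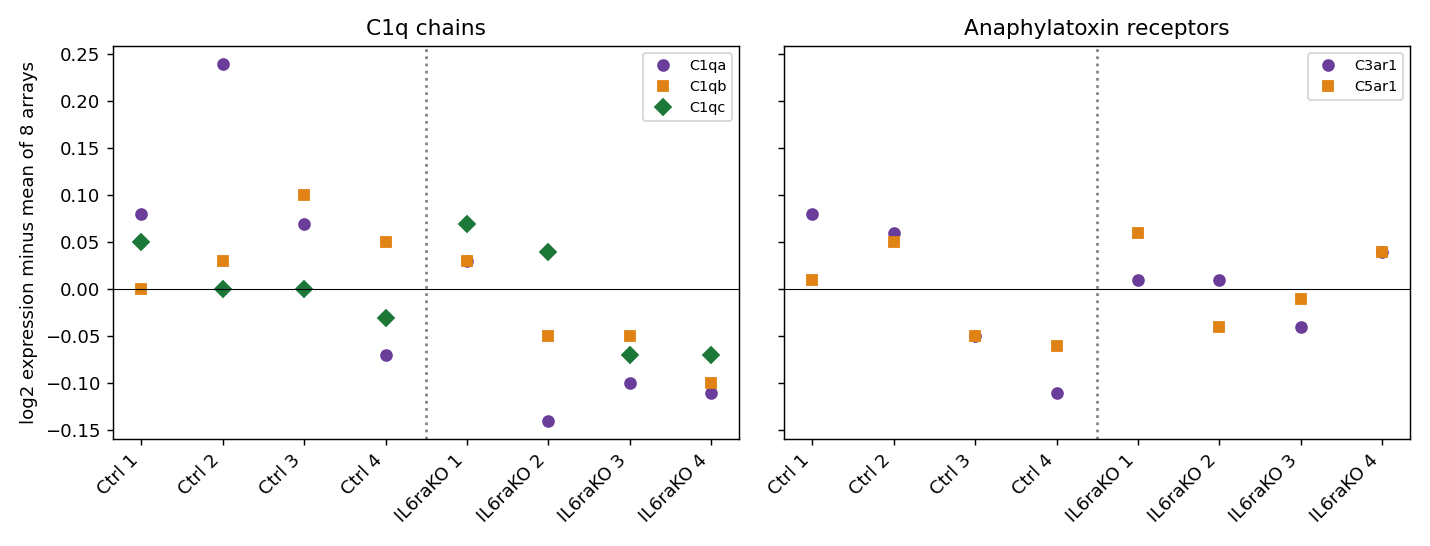
Log2 expression of the C1q chains (left) and of C3ar1 and C5ar1 (right) in each array, as the deviation from the gene's mean over 8 arrays; the dotted line parts Ctrl from IL6raKO. C1qa is highest in Ctrl replicate 2 (0.24), and C3ar1 and C5ar1 are lowest in Ctrl replicate 4 (-0.11 and -0.06).

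Beyond C1q, the classical pathway is represented by C4b, which encodes complement C4, the target of the C1 protease. C4b (probe set 10450242) was at 5.30, 5.29, 5.27 and 5.39 in Ctrl and at 5.25, 5.57, 5.16 and 5.46 in IL6raKO. IL6raKO replicates 2 and 4 lay above every Ctrl array and replicates 1 and 3 below every one, so the spread was 0.19 (SD, n = 4) in IL6raKO against 0.05 (SD, n = 4) in Ctrl. The difference was 0.05 (SE 0.09, 95% confidence interval -0.15 to 0.24, limma adjusted p = 0.936). Without IL6raKO replicate 2 it was -0.02 (limma adjusted p = 0.974), and no direction can be given. C4b was the 1 member at or under the 25th percentile of mean level among all genes. RMA compresses differences of such dim probe sets. Its close copy C4a, whose transcript may share probes with it, differed by 0.04 (SE 0.09), and the pair had r = 0.19 (exact permutation p = 0.651) and rho = 0.29 (exact permutation p = 0.501) across the 8 arrays, with r = 0.27 without the 2 arrays farthest from the median of C4b.

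Genes of the alternative pathway did not pass either. Cfb (probe set 10450325), factor B, was at 6.88, 6.95, 6.85 and 6.81 in Ctrl and at 7.0, 6.76, 6.72 and 6.84 in IL6raKO. IL6raKO replicate 1 was the highest of all arrays and IL6raKO replicate 3 the lowest. The difference was -0.04 (SE 0.07, 95% confidence interval -0.20 to 0.11, limma adjusted p = 0.918). Cfp (probe set 10603860), properdin, was at 9.45, 9.42, 9.43 and 9.50 in Ctrl and at 9.49, 9.38, 9.41 and 9.34 in IL6raKO. Its IL6raKO replicates 2, 3 and 4 lay just below the Ctrl arrays and replicate 1 among them, as for C1qa and C1qb. The difference was -0.04 (SE 0.06, 95% confidence interval -0.17 to 0.09, limma adjusted p = 0.896), or 97.1% of control.

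The receptors of the anaphylatoxins C3a and C5a gave differences close to 0. C3ar1 (probe set 10547657), the C3a receptor, was at 13.01, 12.99, 12.88 and 12.82 in Ctrl and at 12.94, 12.95, 12.89 and 12.97 in IL6raKO. All 4 IL6raKO arrays lay inside the Ctrl range. The difference was 0.01 (SE 0.06, 95% confidence interval -0.13 to 0.15, limma adjusted p = 0.98), so that levels below 91.5% or above 111.0% of control lie outside the interval. C5ar1 (probe set 10560242), the C5a receptor, was at 10.85, 10.89, 10.79 and 10.78 in Ctrl and at 10.89, 10.80, 10.83 and 10.88 in IL6raKO. The groups covered nearly the same range, and the difference was 0.02 (SE 0.06, 95% confidence interval -0.11 to 0.15, limma adjusted p = 0.956). C3ar1 and C5ar1 had r = 0.71 (exact permutation p = 0.0559) and rho = 0.64 (exact permutation p = 0.0962) across the 8 arrays, r = 0.70 without the 2 arrays farthest from the median of C3ar1, and r = 0.71 with the genotype means removed.

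Over all 28 pairs of members, the highest r was 0.74, for C1qa and Cfb (exact permutation p = 0.0389, rho = 0.74 with exact permutation p = 0.0458, and r = 0.62 without the 2 arrays farthest from the median of C1qa). The next was 0.71 for C1qb and Cfp (exact permutation p = 0.0457, rho = 0.71 with exact permutation p = 0.0576, and r = 0.81 without the 2 arrays farthest from the median of C1qb). Adjusted over the 28 pairs, the lowest p of any r was 0.46 and of any rho 0.537, so no pair of members passed. The gene most like each member across the 8 arrays, by Pearson r among 18102 named genes, was Apip for C1qa (0.96), Themis for C1qb (0.96), Actr5 for C1qc (0.97), Olig1 for C4b (0.99), Swsap1 for Cfb (0.96), Ankef1 for Cfp (0.96), Rap1a for C3ar1 (0.98) and Olfr866 for C5ar1 (0.97). With the genotype means removed, Olig1 (0.99) and Olfr866 (0.98) were again the most like C4b and C5ar1. For the other 6 members another gene came first: Olfr930 (0.99) for C1qa, Stk25 (0.98) for C1qb, Rgs13 (0.97) for C1qc, Trdn (0.97) for Cfb, Shfl (0.98) for Cfp and Itfg1 (0.99) for C3ar1. These are the highest of many values over few arrays and are given as a description.

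Of the 8 members, 0 were called at a limma adjusted p under 0.05, a threshold that 0.0301% of all genes passed. At an unadjusted p under 0.05 the count was also 0 of 8, against 7.28% of all genes, while in 7 of 17 alternative settings it was 1, C1qa each time. In 0 of 8 were the groups free of overlap, against 4.44% of all genes. Of the members 5 were lower and 3 higher in IL6raKO, with a median difference of -0.03, while 54.2% of all genes were lower and their median was -0.01. The 95% intervals of 7 of the 8 members lay within 0.25 of 0 on the log2 scale, the exception being C1qa. None of the 8 intervals held -0.50, the difference of Il6ra. That difference had an interval of its own, -0.66 to -0.34, and sets no size to expect for other genes. Each interval is for its gene alone. In RNA of a whole culture, fewer cells that express a gene and less RNA per cell cannot be told apart.

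**Figure D3:**
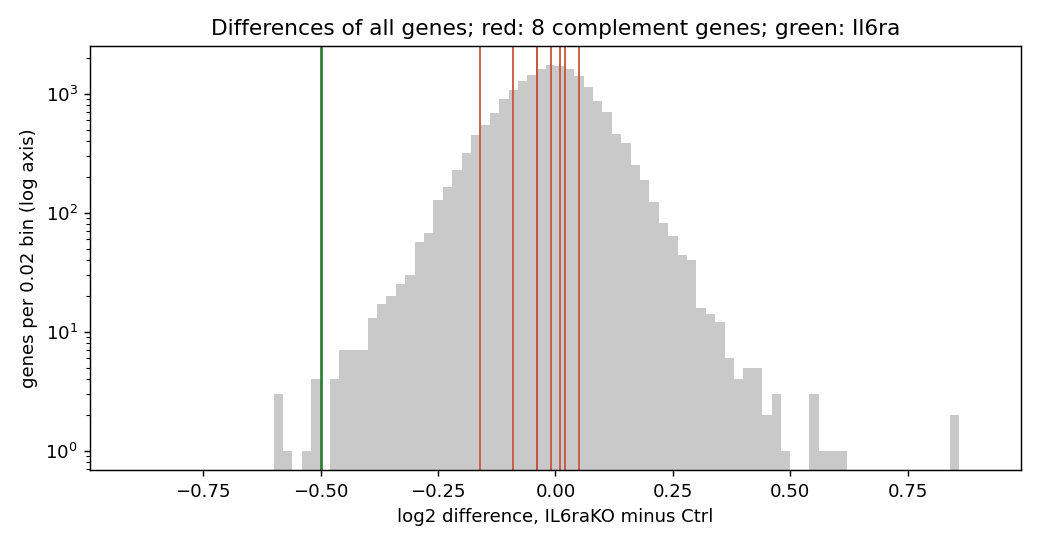
Histogram of the log2 difference, IL6raKO minus Ctrl, over 19938 genes (bins of 0.02, log vertical axis), with red lines at the 8 complement genes and a green line at Il6ra (-0.50). The red lines lie between -0.16 (C1qa) and 0.05 (C4b).

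The rest of the complement system was looked at through a list of 47 other genes chosen by role, of which 44 were measured. At a limma adjusted p under 0.05, 0 of the 44 were called, against 0.0301% of all genes. At an unadjusted limma p under 0.05 the count was also 0 of the 44, against 7.28% of all genes. Their median difference was -0.03, with 29 lower and 15 higher, and values from -0.19 to 0.16. Of all genes 54.2% were lower, which applies to the counts by role below as well. Many of these probe sets were dim. Of the 52 complement genes, members included, 35 lay above the 25th percentile of mean level and 21 above the median. As for C4b, RMA compresses differences of the dim ones, C9 (Ctrl mean 4.0) among them, so a small difference there is weak evidence of no change. Among 14 genes of the classical and lectin pathways 11 were lower and 3 higher, with a median of -0.07 beside -0.01 over all genes. C1ra, a protease of the C1 complex, was between 5.71 and 6.43 in Ctrl and between 5.58 and 6.08 in IL6raKO, a difference of -0.17 (SE 0.15). Its near-copy C1rb has no probe set of its own here, and the signals of the pair may mix. C1ra was the 1 gene of the 44 whose interval held the difference of Il6ra. C2, the neighbour of Cfb in gene order, with 0 protein-coding genes between, differed by -0.09 (SE 0.06). The lectin pathway collectin Colec10 had the highest difference, 0.16 (SE 0.09, limma adjusted p = 0.715).

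Of 7 genes of the terminal pathway, whose products form the membrane attack complex, 5 were lower and 2 higher (median -0.08). C9, the pore-forming component, had the lowest p of the wider list: it was between 3.82 and 4.13 in Ctrl and between 3.66 and 4.03 in IL6raKO, a difference of -0.19 (SE 0.10, limma unadjusted p = 0.0676, adjusted p = 0.707). Hc, which encodes C5, differed by -0.10 (SE 0.07). Of 7 fluid phase regulators 4 were lower and 3 higher (median -0.01). Serping1, the C1 inhibitor, differed by -0.06 (SE 0.10), Clu, clusterin, by 0.01 (SE 0.09) and Vtn, vitronectin, by -0.18 (SE 0.10, limma adjusted p = 0.715).

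Membrane regulators, which protect the cell's own surface from complement, were split 3 lower and 3 higher (median -0.01). Cr1l, the rodent regulator Crry, was between 9.38 and 9.88 in Ctrl and between 9.77 and 9.80 in IL6raKO, a difference of 0.12 (SE 0.10) within the Ctrl range. Cd55, decay-accelerating factor, differed by 0.10 (SE 0.09) and its neighbour Cd55b by -0.15 (SE 0.09). Of 10 further receptors and C1q-binding proteins, 6 were lower and 4 higher, and the differences lay between -0.08 and 0.05. Itgam and Itgb2, the chains of complement receptor 3, differed by -0.03 (SE 0.06) and -0.01 (SE 0.06). C5ar2, the second C5a receptor and the neighbour of C5ar1 in gene order, was between 7.29 and 7.41 in Ctrl and between 7.21 and 7.32 in IL6raKO, a difference of -0.05 (SE 0.06). Vsig4, a macrophage receptor for C3 fragments, differed by -0.08 (SE 0.10).

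**Figure D4:**
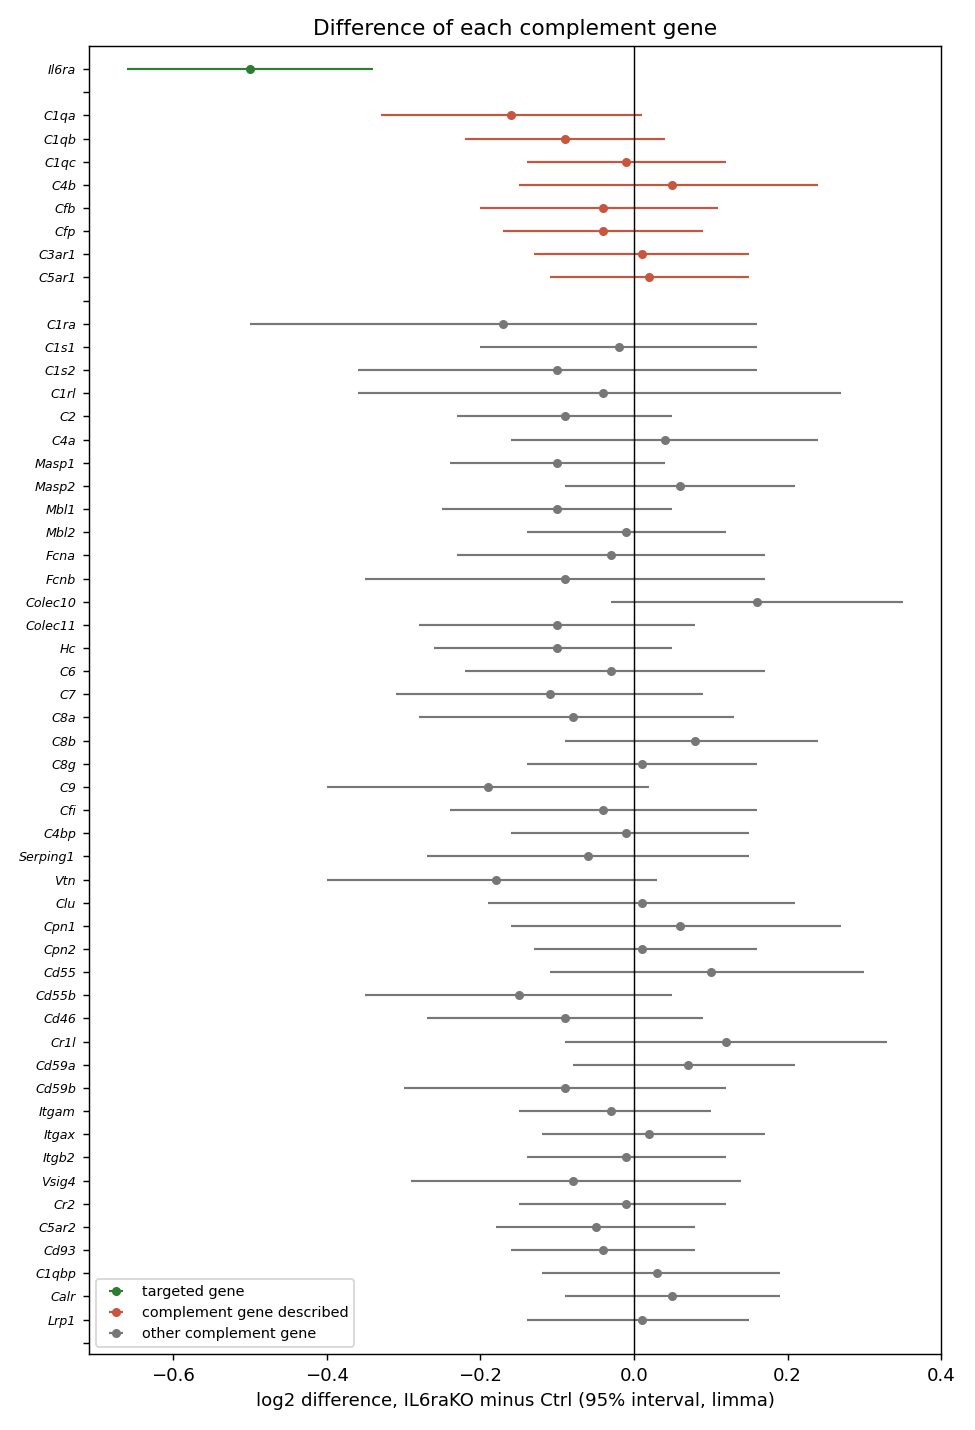
Log2 difference, IL6raKO minus Ctrl, with its 95% interval from limma for Il6ra (green), the 8 complement genes (red) and 44 other complement genes (grey). The intervals of all 52 complement genes cross 0, and that of Il6ra does not.

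Other cells could add complement transcripts to a culture, neutrophils and mast cells among them for properdin and stromal cells for C4 and the C1 proteases. Of 10 stromal markers 7 were lower and 0 were called in limma (1 at an unadjusted p under 0.05), and their summed linear level was 939 to 1151 in Ctrl and 842 to 1092 in IL6raKO. Of 12 neutrophil and granulocyte precursor markers 9 were lower and 0 were called (1 at an unadjusted p under 0.05), with sums of 2723 to 3472 and 2694 to 2958. Mmp8 made up most of these sums, at 10.85 to 11.39 in Ctrl and 10.92 to 11.18 in IL6raKO. No other marker of this list exceeded 7.63. Mmp8 was lowest in Ctrl replicate 4, so the sums do not follow the mean of the list. All 10 mast cell and basophil markers were lower and 0 were called (0 at an unadjusted p under 0.05, median -0.16, sums of 839 to 1554 and 678 to 1160). Beside these counts, 54.2% of all genes were lower and 7.28% had an unadjusted limma p under 0.05. These arrays give no value of 0, so that absence of a marker cannot be read from them. Ctrl replicate 4 had the highest mean log2 level of the mast cell and basophil list, of the neutrophil list and of the dendritic cell list. It was also the array with the highest Cfp (9.50) and the lowest C3ar1 (12.82). Other arrays did not share this order. IL6raKO replicate 1 had the lowest Cpa3, a mast cell marker (7.39), and Cfp at 9.49. In IL6raKO replicate 4, Cpa3 was at 8.55 and Cfp was the lowest of all arrays (9.34). The 3 monocyte markers measured were all lower, with 0 called and a median difference of -0.21. Their mean log2 level ran from 7.10 to 7.53 in Ctrl and from 6.57 to 7.57 in IL6raKO. The part of all these markers in the complement values was not tested.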

How the data were processed

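RNA of 8 IL-6-treated macrophage cultures, 4 Ctrl and 4 IL6raKO, was measured on Affymetrix arrays of whole transcripts with biotin-labelled cDNA, per the labels' protocols. Each deposited value is the log2 expression of 1 probe set on 1 array. The submitters' processing notes name RMA and R 2.13.1, without the order of steps, a filter or a build. Values ran from 1.96 to 14.2, which with RMA sets the scale as log2, and array medians from 6.31 to 6.35. The number of arrays limits the precision.

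Of 35556 probe sets, 21789 had 1 gene symbol in GEO's platform annotation, 1621 had several and 12146 were not named. RefSeq's GRCm38.p6 gene table held the identifiers of 21698, and 0 symbols changed. With several probe sets, the one of highest mean over 8 arrays stood for a gene; each measured member had 1. Promoters are RefSeq's, from GRCm38.p6, cut to 250 bases before the start.

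IL6raKO was compared with Ctrl over all 19938 genes with limma 3.58.1 in R 4.3.3 (lmFit, eBayes, no covariate, no filter, Benjamini-Hochberg adjustment, two-sided, calls under 0.05). The fit was tested on simulated independent genes, with changes larger than the difference of any member. That test therefore does not show whether differences as small as those of the members would be called. Correlations and log ratios used exact two-sided permutation tests. The members and lists were chosen with earlier results of these data known. Named genes are the members, Il6ra, members of the wider list with an unadjusted p under 0.05 (0 genes) and known examples by role, and the gene most like each member; microRNA, snoRNA and unnamed gene models were left out of the last. Of 64 marker genes 60 were measured; 5 B cell, 5 T and NK cell, 3 monocyte and 5 dendritic cell markers, with 0 called (0, 2, 0 and 1 at an unadjusted p under 0.05), had median differences of -0.09, -0.07, -0.21 and -0.07, and the 10 macrophage markers 0.01. Over all genes, same-numbered replicates did not deviate together (r between -0.01 and 0.04), and the numbers were not used as pairs. Cpa3 and Mcpt8 did rise with the replicate number in both groups, while the other mast cell and basophil markers did not. Cpa3 was at 7.93, 8.26, 8.42 and 9.17 in Ctrl and at 7.39, 8.08, 8.25 and 8.55 in IL6raKO. An r over all genes cannot show that no gene was paired.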

Additional observations from a re-analysis of the deposited data

How the results depend on the processing

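Under all 17 alternatives (a trended and robust variance, the replicate number as a block, 2 filters on dim genes, 2 further scalings, array weights, 2 treatments of probe sets and each of 8 arrays left out), 0 of the measured members and 0 of the other complement genes were called in limma. C1qa had an unadjusted limma p under 0.05, from 0.0157 to 0.0435, in 7 of the 17: trended and robust variance, genes above the median level, quantile normalization again, centring on the 75th percentile, array weights, without Ctrl replicate 4 and without IL6raKO replicate 1. Among all 52 complement genes, members included, 11 of the 17 alternatives had at least 1 gene at an unadjusted limma p under 0.05, and at most 2. In the main fit 7.28% of all genes had such a p, and the shares in the alternatives are not given here. C4b entered neither filtered fit. These fits held 35 (above the 25th percentile) and 21 (above the median) of the 52 complement genes. The lowest adjusted p of any member was 0.533, for C1qa with arrays centred on the 75th percentile. The difference of C1qa lay between -0.21 and -0.11 and that of C1qb between -0.12 and -0.07 over the alternatives. The count of called genes over the whole array was less steady: 6 as reported, 22 with trended and robust variance, 0 with the replicate block, 11 above the median level, 11 above the 25th percentile, 3 with quantile normalization again, 0 over all probe sets, and 0 to 1 with 1 array left out. Leaving out an array lowers the number of samples and testing all probe sets raises the number of tests. What moved the count was not tested for any setting. No pairing by replicate number was seen over all genes, though Cpa3 and Mcpt8 rose with it in both groups. The replicate block changed no call of a complement gene.

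The sign of differences near 0 turned in some alternatives. C3ar1 gave -0.02 when centred on the 75th percentile, -0.0011 with array weights and -0.02 to 0.04 with 1 array left out. C5ar1 gave -0.01 when centred on the 75th percentile. With 1 array left out, C1qc gave -0.04 to 0.01 and C4b -0.02 to 0.11. Centring on the 75th percentile moved all genes by -0.03 in the median. For the sets of 4 arrays of each member and Il6ra, 0 of 18 held an array far from the other 3 by Dixon's test.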
